A study of Mus musculus with 11 samples.

Results

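The genes described here are 9 chemokine ligand genes, Cxcl1, Cxcl2, Cxcl5, Cxcl10, Cxcl12, Cxcl14, Ccl2, Ccl7 and Cx3cl1. They were taken by symbol from a table of 48709 genes of mouse muscle stem cells, and all 9 had a row. The cells, also called satellite cells, came from the pectoral, forelimb and hindlimb muscles of C57BL/6 mice with the transgene Tg:Pax7-nGFP, in which Pax7, a transcription factor of satellite cells, drives a green fluorescent protein of the nucleus. Before their RNA was extracted, cells of all 3 groups had been fixed with 0.5% paraformaldehyde, at different points. T0 was fixed in situ, as whole muscle and before any dissociation, T3 was fixed as sorted cells after a standard isolation, and T5 had an additional 2 h at 37 °C. All groups share the strain and the transgene, and the labels give neither age nor sex of the mice. For T5 the treatment protocol puts the 2 h on the dissected muscles in DMEM before the isolation, while the series' design text adds them to the isolation without that step, so the surroundings of the T5 cells in those 2 h are uncertain. Whether the T5 cells had passed through the state of T3 is therefore not known either. The point of fixation differed along with the isolation, and the share of each in a difference between T3 and T0 cannot be told apart.

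Chemokines are small secreted proteins that bind to proteoglycans of the tissue and guide cells that carry the matching G protein-coupled receptor. Inflammatory members are switched on in stromal, muscle and immune cells after injury, and recruit first neutrophils and then monocytes to damaged muscle. Homeostatic members are made in resting tissue and help to position stem cells and lymphocytes.

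There were 3 libraries of T0, 4 of T3 and 4 of T5. Those of T5 are labelled by a letter and a numeral, and counts of the same letter were summed, giving 2 T5 replicates, A and B. Total counts per library were 49078859 to 67251946 (T0), 52632553 to 72638711 (T3) and 61837170 to 102347035 (T5). Whether libraries of 1 group stem from different mice is not stated, so p-values refer to the spread among these libraries, which could be technical. Pax7 stood at 3140 to 4440 CPM (reads scaled to library size with edgeR's TMM factors) in T0, and at 249 to 400 (T3) and 306 to 325 (T5). Of 10 satellite cell markers 5 were called lower (Pax7, Calcr, Cdh15, Fgfr4 and Notch3) and 2 higher (Vcam1 and Sdc4) in T3 than in T0. Myf5, Chrdl2 and Itga7 were not called. Of all genes tested, 22.9% were called lower and 15% higher. Markers of other cells were also present: the summed level of 10 endothelial markers was 256 to 298, 454 to 553 and 268 to 269 CPM in T0, T3 and T5, and that of 10 monocyte and macrophage markers was 25.5 to 53.8, 40.7 to 61.8 and 43.6 to 52 CPM. One library stood apart for several of the ligands: T3 replicate 3 had the highest Ccl2, Ccl7, Cxcl10 and Cxcl14 of all T3 replicates. Its 10 neutrophil markers summed to 21.1 CPM, against 4.77 to 10.3 CPM in the other T3 replicates, and its monocyte and macrophage markers to 61.8 CPM, against 40.7 to 46.7.

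All 9 genes passed the filter on low counts, Cxcl2 only through T3 and T5. Changes were tested by edgeR's quasi-likelihood F test in 1 fit of all groups. The p-values were adjusted over 31999 genes (Benjamini-Hochberg), and a gene was called at an adjusted p under 0.05. In T3 against T0, 7 of the 9 ligands were called higher and 0 lower, while 15% of all genes tested were called higher and 22.9% lower. In T5 against T3, 0 were called higher and 3 lower, beside 1.28% and 0.888% of all genes. In T5 against T0, 6 were called higher and 1 lower, beside 13.2% and 22.5% of all genes. The median log2 fold change of the 9 was 3.03, −0.71 and 2.42 in these comparisons, and that of all genes tested was 0.0472, 0.0511 and 0.1831. The comparisons share samples (T0 in the first and the last, T3 in the first and the second), so they are not independent of each other.

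**Figure D1:**
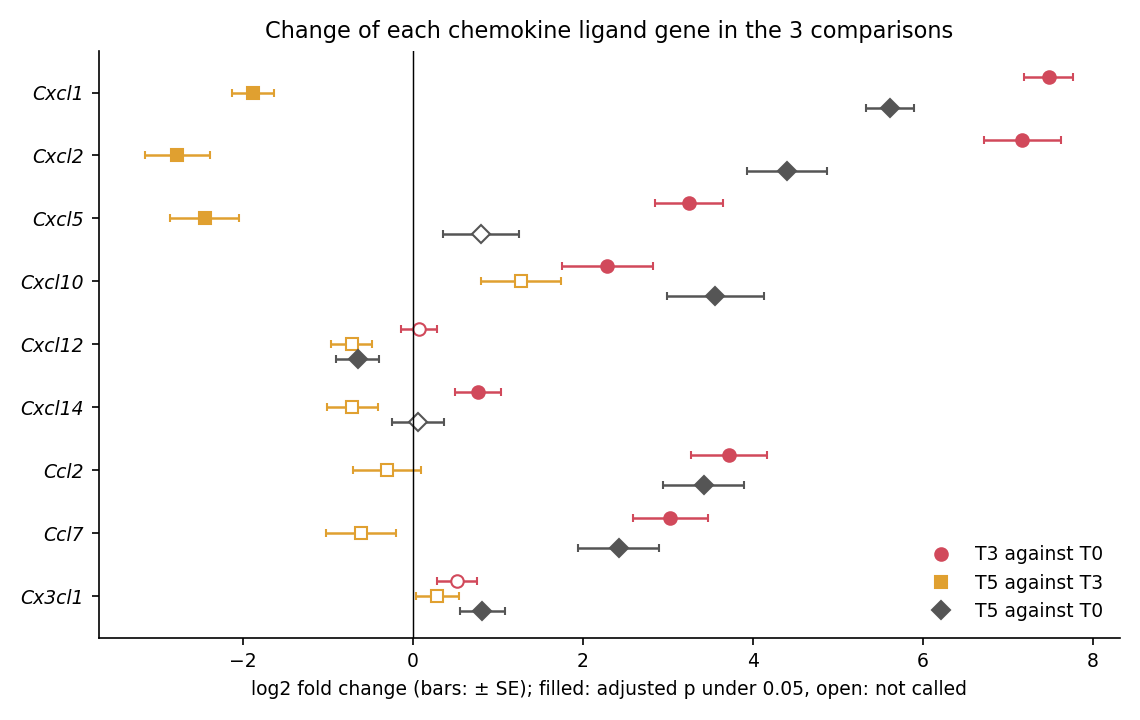
Log2 fold change of each of the 9 ligand genes (points, with bars of ± SE) in T3 against T0, T5 against T3 and T5 against T0; filled symbols passed an adjusted p of 0.05 and open symbols did not. Cxcl1, Cxcl2 and Cxcl5 were higher in T3 than in T0 and lower in T5 than in T3, whereas Ccl2, Ccl7 and Cxcl10 were higher than in T0 in both T3 and T5.

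Cxcl1, Cxcl2 and Cxcl5 encode ligands of the receptor Cxcr2, which draw neutrophils out of the blood. All 3 were higher in T3 than in T0 and lower in T5 than in T3. The promoters of Cxcl1 and Cxcl2 are shown because the same motif stands in both, in the genes with the 2 highest changes of the 9. Of the 9 ligands, 6 had a promoter in the RefSeq table (GRCm38.p6), and Cxcl5, Ccl2 and Ccl7 had none. The 250 bases before the transcription start are printed 5′ to 3′ on the gene's strand, with matches to the NF-kB consensus in capitals.
Cxcl1 (GRCm38, chr5:90890995-90891244, + strand): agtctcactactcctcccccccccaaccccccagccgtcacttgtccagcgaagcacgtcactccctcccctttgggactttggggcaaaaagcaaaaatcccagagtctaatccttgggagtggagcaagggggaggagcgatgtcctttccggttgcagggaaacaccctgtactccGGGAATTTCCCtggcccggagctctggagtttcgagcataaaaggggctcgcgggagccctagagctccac
Cxcl2 (GRCm38, chr5:90903649-90903898, + strand): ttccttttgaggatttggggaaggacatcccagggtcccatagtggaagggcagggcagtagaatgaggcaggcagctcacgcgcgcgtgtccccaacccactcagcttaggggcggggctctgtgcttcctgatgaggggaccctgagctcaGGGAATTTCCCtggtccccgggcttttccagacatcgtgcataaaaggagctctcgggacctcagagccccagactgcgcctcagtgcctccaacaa
In each, GGGAATTTCCC holds overlapping matches to the NF-kB consensus on both strands. Its first base lies 71 bases before the RefSeq start of Cxcl1 and 97 bases before that of Cxcl2. The gene coordinates given below are those of GENCODE vM21 and begin inside the printed bases, at 90891241 and 90903871. The distances therefore depend on the start used. The longest run of identical bases shared by the 2 windows was this motif with its next bases, 14 bases in all. Of 32841 RefSeq promoters of 300 bases (250 before and 50 after the start), 8.46% held a match to the NF-kB consensus on either strand, and 14 promoters (0.0426%) held these 11 letters. Neither window held the AP-1 motif TGANTCA, the interferon-stimulated response element (ISRE, searched as GAAA, any 2 bases and GAAA) or the TATA box TATAAA. Only the exact letters TATAAA were searched, and both windows hold the near match CATAAA, within gcataaaagg. A match is a description of the letters and was not tested for binding.

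Cxcl1 (ENSMUSG00000029380.11, chromosome 5, 90891241 to 90893115, GRCm38) had 0.714, 0.601 and 0.681 CPM in T0 replicates 1, 2 and 3, and 94, 135, 131 and 116 CPM in T3 replicates 1 to 4. In T5 it had 37.3 CPM in replicate A and 27.5 in replicate B. All T3 replicates stood above all T5 replicates, and these above all of T0. Cxcl1 was lower in T5 than in T3 by 1.88 ± 0.25 (SE) on the log2 scale, at 0.273 of its T3 level (adjusted p = 6.84e-05, edgeR). It was 48.7-fold higher in T5 than in T0 (log2 5.61 ± 0.28, adjusted p = 7.59e-12). The difference between T3 and T0 was 7.48 ± 0.29 (log2). The 4 separate T5 libraries had 40.1, 35.7, 24.7 and 31.2 CPM, so that the libraries of letter A were both above those of letter B.

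Cxcl2 (ENSMUSG00000058427.10, chromosome 5, 90903871 to 90905938) was near the limit of detection in T0, with 0.0649, 0.0343 and 0.164 CPM. These rest on 18 reads in all (95% exact Poisson interval 10.7 to 28.4, counting error only), and only 1 T0 replicate reached the 0.154 CPM of the filter, which the gene passed through T3 and T5. T3 replicates had 6.94, 19.8, 17.4 and 11.7 CPM and T5 had 2.22 and 1.86 CPM. The groups did not overlap. Cxcl2 was 144-fold higher in T3 than in T0 (log2 7.17 ± 0.45, adjusted p = 1.10e-10). In T5 it stood at 0.146 of its T3 level (log2 −2.77 ± 0.38, adjusted p = 9.53e-05). In T5 it was 21.1-fold above T0 (log2 4.40 ± 0.47, adjusted p = 2.57e-07).

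Cxcl5 (ENSMUSG00000029371.7, chromosome 5, 90759360 to 90761624) moved over a smaller range. It had 0.281, 0.172 and 0.164 CPM in T0, 1.44, 2.21, 2.51 and 1.48 CPM in T3, and 0.509 and 0.18 CPM in T5. T3 was above both other groups in every replicate, and T5 overlapped with T0. The T3 level was 9.51-fold that of T0 (log2 3.25 ± 0.40, adjusted p = 6.61e-07). Cxcl5 was lower in T5 than in T3 by 2.45 ± 0.41 on the log2 scale (adjusted p = 0.00101). That call was lost without T5 replicate B (log2 −1.91). T5 against T0 gave 0.80 ± 0.45 (adjusted p = 0.173). The sum of endothelial markers was likewise highest in T3, with 5 of 10 called higher in T3 than in T0 and 5 of 10 lower in T5 than in T3. All genes tested gave 15% and 0.888% for these calls. Of 10 markers of myofibres, the muscle fibres that satellite cells lie on, 9 were called higher in T3 than in T0 (median log2 1.6) and 5 lower in T5 than in T3, with sums of 65.1 to 74, 122 to 186 and 108 to 111 CPM in T0, T3 and T5. In T3 replicate 3, which had the most neutrophil marker RNA, Cxcl1 and Cxcl2 were within the range of the other T3 replicates and Cxcl5 was the highest by a small margin. The part of these cells in the levels was not tested. In such bulk samples, fewer cells of a type and less RNA per cell cannot be told apart.

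**Figure D2:**
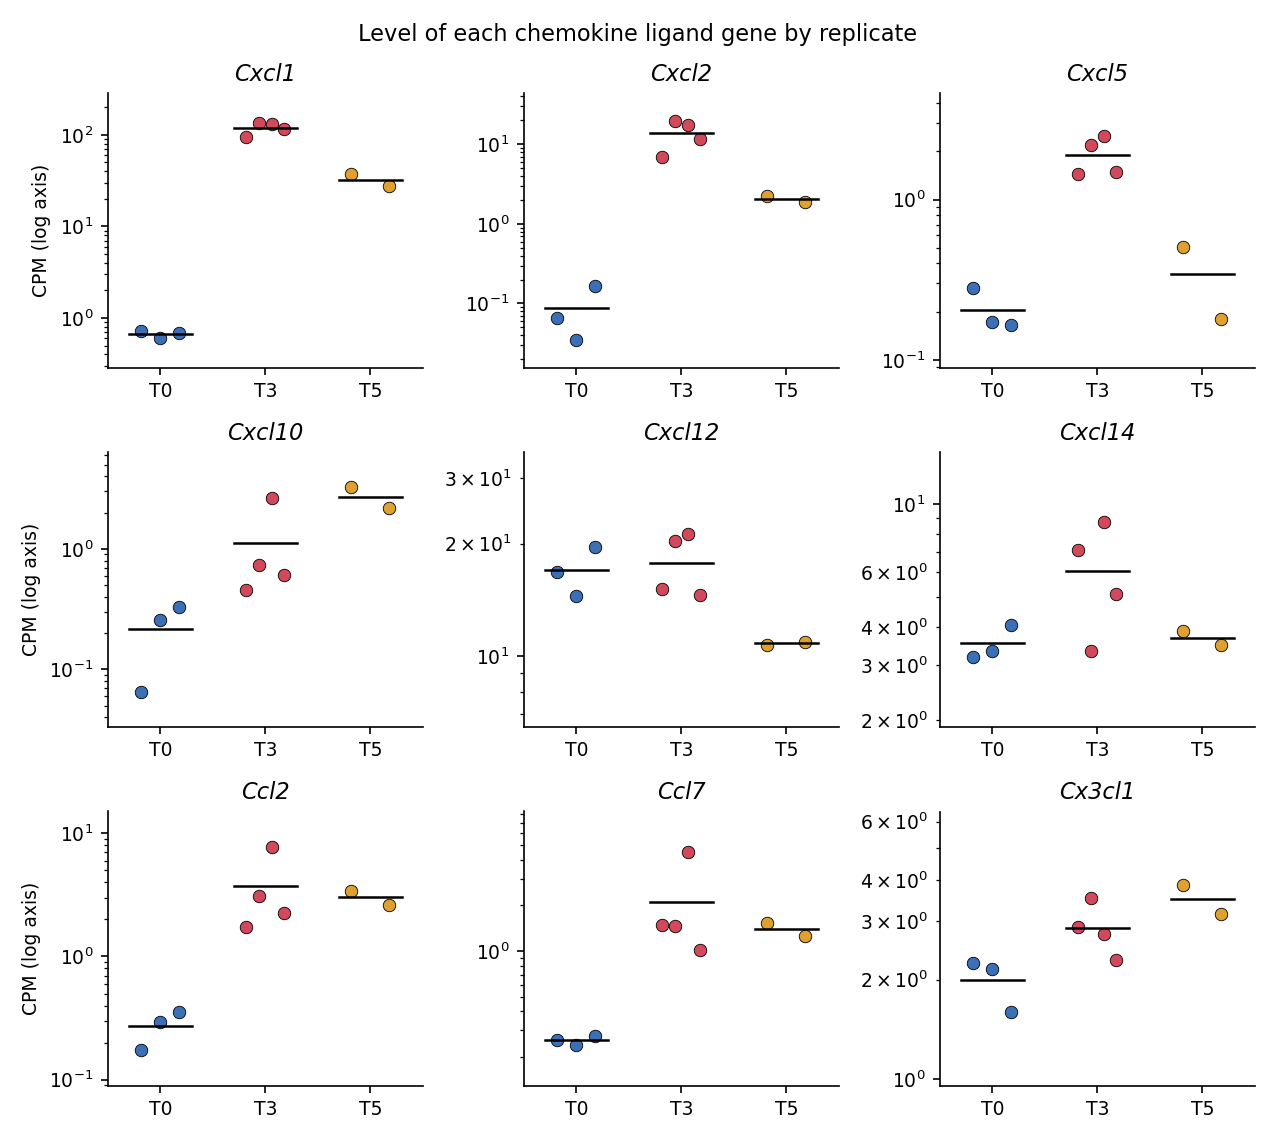
Level of each ligand gene in CPM (log axis, a scale of its own in each panel) in the replicates of T0 (blue, 3), T3 (red, 4) and T5 (yellow, 2), with the mean as a line. Cxcl1 ran from 0.601 to 0.714 CPM in T0 and from 94 to 135 CPM in T3, while the ranges of Cxcl12 in T0 and T3 overlapped; T3 replicate 3 is the high red point of Cxcl10, Ccl2 and Ccl7.

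Ccl2 and Ccl7 encode ligands of Ccr2, the receptor by which inflammatory monocytes leave the bone marrow and enter tissue. Both were higher in T3 and T5 than in T0, and neither was called between T3 and T5. Ccl2 (ENSMUSG00000035385.5, chromosome 11, 82035571 to 82037453) had 0.173, 0.292 and 0.353 CPM in T0. T3 replicates 1 to 4 had 1.73, 3.07, 7.77 and 2.24 CPM, and T5 had 3.42 and 2.63 CPM. T3 and T5 overlapped with each other and not with T0. Ccl2 was 13.2-fold higher in T3 than in T0 (log2 3.72 ± 0.45, adjusted p = 6.07e-07) and 10.7-fold higher in T5 than in T0 (log2 3.42 ± 0.48, adjusted p = 7.16e-06). T5 against T3 gave −0.30 ± 0.40 (adjusted p = 0.768), and its sign turned without T3 replicate 3 (0.36) and with the replicate number as a block (0.25).

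Ccl2 lies within Gm17268 on the other strand, and the counts do not keep such genes apart: of 1395 genes with at least 1000 reads that lie inside a single gene of the opposite strand, 1390 had no more reads than that gene. The reads of Gm17268 outside Ccl2 would give 0.145 to 0.278 CPM over the span of Ccl2 in T0, against the 0.173 to 0.353 CPM counted for Ccl2. Its T0 level is therefore not above what the host gene would add in every replicate. In T3 the same estimate was 0.14 to 0.185 CPM and in T5 0.163 to 0.23, far below Ccl2.

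Ccl7 (ENSMUSG00000035373.2, chromosome 11, 82045712 to 82047525), which overlaps no other gene, had 0.26, 0.24 and 0.277 CPM in T0, 1.49, 1.47, 4.5 and 1.01 CPM in T3, and 1.54 and 1.25 CPM in T5. All replicates of T3 and T5 were above those of T0. It was 8.15-fold higher in T3 than in T0 (log2 3.03 ± 0.44, adjusted p = 6.45e-06). In T5 it was 5.34-fold higher than in T0 (log2 2.42 ± 0.48, adjusted p = 0.000296). T5 against T3 gave −0.61 ± 0.41 (adjusted p = 0.562), and 0.07 without T3 replicate 3. Without that replicate the log2 fold changes of T3 against T0 were 3.06 for Ccl2 and 2.35 for Ccl7, both called. That the change from T3 to T5 differs between Cxcl1, Cxcl2 or Cxcl5 and this pair was not tested.

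Cxcl10 encodes an interferon-induced ligand of Cxcr3, which attracts activated T cells and NK cells. Its promoter is printed because it held 3 of the 4 motifs searched. From the 5′ end the capitals mark an ISRE (first base 213 bases before the start), an NF-kB match (159), overlapping NF-kB matches (104) and an AP-1 match (74).
Cxcl10 (GRCm38, chr5:92348890-92349139, - strand): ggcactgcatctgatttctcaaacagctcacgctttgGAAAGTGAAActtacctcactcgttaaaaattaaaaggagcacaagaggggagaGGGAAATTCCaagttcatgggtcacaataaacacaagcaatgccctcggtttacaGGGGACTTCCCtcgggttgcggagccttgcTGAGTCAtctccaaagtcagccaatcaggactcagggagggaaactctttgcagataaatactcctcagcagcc
An AP-1 match was present in 7.81% and an ISRE match in 3.44% of the 32841 promoters. Of the others, Cxcl14 held an ISRE match at 172 bases, Cx3cl1 the letters TATAAA at 6 bases before its RefSeq start, and Cxcl12 none of the 4 motifs. GENCODE vM21 starts Cx3cl1 at 94772009, upstream of these letters, which end at 94772179. By that start they lie inside the gene. TATAAA was present in 13.6% of all promoters.

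**Figure D3:**
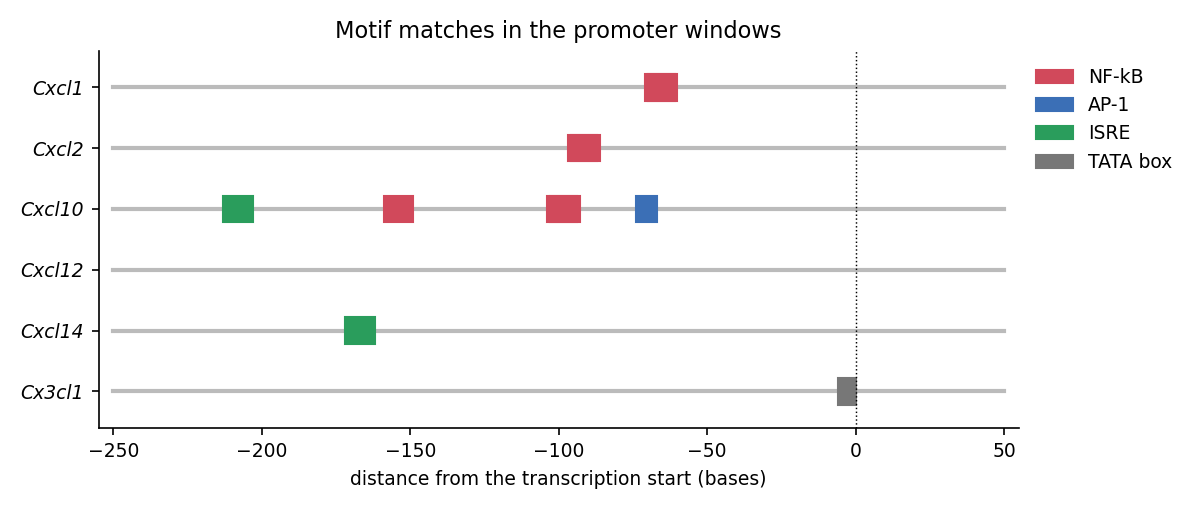
Matches to the NF-kB, AP-1, ISRE and TATA box motifs (coloured blocks, on either strand) by distance in bases from the RefSeq transcription start (0, dotted) in the 6 ligand promoters of the RefSeq table. Cxcl1 and Cxcl2 hold 1 NF-kB place each and Cxcl10 holds 2, beside an ISRE and an AP-1 match.

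Cxcl10 (ENSMUSG00000034855.13, chromosome 5, 92346638 to 92348889) had, like Cx3cl1 and unlike the other 7, its highest mean in T5. T0 replicates had 0.0649, 0.258 and 0.328 CPM, T3 replicates had 0.454, 0.737, 2.65 and 0.604 CPM, and T5 had 3.25 and 2.17 CPM. T0 was below all other replicates, and T3 and T5 overlapped through T3 replicate 3. T3 was 4.88-fold above T0 (log2 2.29 ± 0.53, adjusted p = 0.0013) and T5 11.8-fold above T0 (log2 3.56 ± 0.57, adjusted p = 3.36e-05). T5 against T3 gave 1.27 ± 0.47 (adjusted p = 0.21), which became a call with the replicate number as a block (2.05, adjusted p = 0.00157) and without the filter on low counts (0.0115). The block matched T5 letters to replicate numbers by order, which the labels do not give, and left T3 replicate 3 in a block without T5. It is thus not separate from the result without T3 replicate 3. Without T3 replicate 3, T5 against T3 was 2.17 (adjusted p = 0.00178), also a call, while T3 against T0 was then 1.39 (adjusted p = 0.0116). The separate T5 libraries had 4.23, 2.27, 1.65 and 2.83 CPM.

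Cxcl10 also lies inside another gene, Art3, on the opposite strand. The reads of Art3 outside the ligand genes would give 0.221 to 0.28 CPM over the span of Cxcl10 in T0, where 0.0649 to 0.328 CPM were counted, so Cxcl10 was not separable from its host in T0. The same estimate was 0.234 to 0.267 CPM in T3 and 0.29 in both T5 replicates, against 0.454 to 3.25 CPM counted. Fold changes of Cxcl10 and Ccl2 against T0 thus include host reads on both sides. Art3 itself was called in none of the 3 comparisons.

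Cxcl12, Cxcl14 and Cx3cl1 were the highest of the 9 in T0 per length of exon, and changed least of the 9 between T0 and T3. Per length of the whole gene span, Cx3cl1 came below Cxcl1 in T0. Cxcl12, the ligand of Cxcr4 that holds stem cells in their niches, had 16.8, 14.5 and 19.6 CPM in T0, 15.1, 20.3, 21.2 and 14.6 CPM in T3, and 10.7 and 10.9 CPM in T5 (ENSMUSG00000061353.11, chromosome 6, 117168535 to 117181367). T3 overlapped with T0 and both T5 replicates were below all others. T3 against T0 gave 0.07 ± 0.21 (log2, adjusted p = 0.827). T5 was at 0.638 of T0 (log2 −0.65 ± 0.25, adjusted p = 0.0464), a call that was lost without any 1 of the T3 or T5 replicates (adjusted p = 0.0555 to 0.272). T5 against T3 gave −0.72 ± 0.24 (adjusted p = 0.148) and was called by DESeq2 (log2 −0.82, adjusted p = 0.0243).

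Cxcl14 (ENSMUSG00000021508.11, chromosome 13, 56288643 to 56296551), a ligand made in many resting tissues, had 3.2, 3.35 and 4.07 CPM in T0, 7.07, 3.33, 8.71 and 5.1 CPM in T3, and 3.88 and 3.5 CPM in T5. T3 replicate 2 was within the range of T0 and the other T3 replicates were above it. The difference of T3 from T0, 1.71-fold (log2 0.77 ± 0.27, adjusted p = 0.0237), was no longer called without T0 replicate 1 (0.0521), T0 replicate 2 (0.0816), T3 replicate 1 (0.0668) or T3 replicate 3 (0.126). T5 against T3 gave −0.71 ± 0.30 (adjusted p = 0.296) and T5 against T0 gave 0.06 ± 0.31 (adjusted p = 0.893).

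Cx3cl1 encodes fractalkine, which is made as an adhesion molecule on the cell membrane and shed by the proteases Adam10 and Adam17. It had 2.25, 2.15 and 1.6 CPM in T0, 2.89, 3.52, 2.74 and 2.3 CPM in T3, and 3.85 and 3.16 CPM in T5 (ENSMUSG00000031778.13, chromosome 8, 94772009 to 94782427). All replicates of T3 and T5 were above all of T0, by narrow margins. T5 was 1.76-fold above T0 (log2 0.82 ± 0.27, adjusted p = 0.0198), a call lost without T5 replicate A (0.214) or T5 replicate B (0.0611). T3 against T0 gave 0.52 ± 0.23 (adjusted p = 0.0857), and 0.83 (adjusted p = 0.00518) with upper quartile factors. T5 against T3 gave 0.29 ± 0.25 (adjusted p = 0.653).

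Levels of different genes were compared per kb of merged exons. In T0 the order was led by Cxcl12 with 1.77 to 2.4 CPM per kb and Cxcl14 with 1.75 to 2.23, whose ranges overlap. Cx3cl1 followed with 0.407 to 0.573, then Cxcl1 with 0.32 to 0.381 and Ccl7 with 0.3 to 0.346, which again overlap. Ccl2 (0.152 to 0.31), Cxcl5 (0.088 to 0.151), Cxcl10 (0.0288 to 0.146) and Cxcl2 (0.0166 to 0.0793) were lowest. The range of Ccl2 overlaps with that of Ccl7 and lies just above that of Cxcl5. The range of Cxcl10 overlaps with both Cxcl5 and Cxcl2, which do not overlap with each other. As a gauge of background, 1497 receptor and defensin genes that are silent in muscle had a mean of 0.061 to 0.0859 CPM per kb in T0 and a median of 0.0124 to 0.0282. Cxcl2 in T0 was at 0.254 to 0.922 times that mean and Cxcl1 at 4.23 to 6.25 times. In T3, Cxcl1 was at 566 to 985 times the mean background of its library.

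The 9 ligands summed to 5.69 ± 0.601 CPM per kb in T0 (SD, n = 3), 83.8 ± 16.5 in T3 (n = 4) and 28.3 ± 5.27 in T5 (n = 2). Of that sum Cxcl12 held 36.4 ± 2.3% and Cxcl14 34 ± 1.6% in T0, and Cxcl1 6.27 ± 0.662%. In T3 Cxcl1 held 76.2 ± 4.98%, Cxcl2 7.8 ± 2.13%, Cxcl14 4.08 ± 1.71%, Ccl2 3.64 ± 2.08% and Ccl7 3.02 ± 1.77%, while Cxcl12 was at 2.61 ± 0.236%. In T5 Cxcl1 held 60.9 ± 1.67%, Ccl2 9.39 ± 0.00796%, Cxcl14 7.22 ± 0.826%, Ccl7 6.17 ± 0.256%, Cxcl12 4.76 ± 0.951% and Cxcl10 4.22 ± 0.417%. Among these 9, the ligand RNA per kb thus consisted mostly of Cxcl12 and Cxcl14 in T0 and mostly of Cxcl1 in T3 and T5. The shares leave out all other ligand genes. Ccl1, for example, overlaps no gene and had 2.29 to 4.92 CPM per kb in T0. Per kb of the whole gene span, introns included, Cxcl12 held 46.5%, Cxcl14 15.8%, Cxcl1 12.6% and Cx3cl1 6.91% in T0. The order of Cxcl1 and Cx3cl1 in T0 thus depends on the length used.

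**Figure D4:**
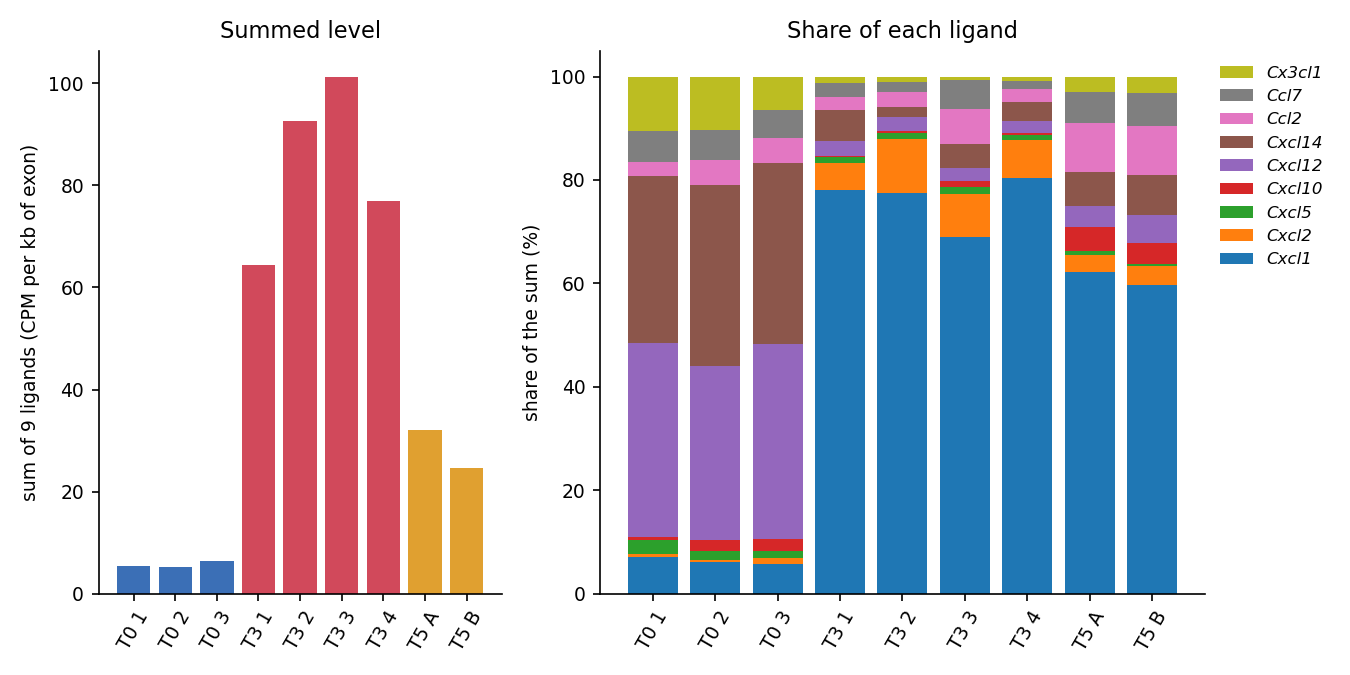
Left, summed level of the 9 ligand genes in CPM per kb of exon in each replicate; right, share of that sum held by each gene, in percent. Cxcl12 and Cxcl14 fill most of the T0 bars, and Cxcl1 fills 69 to 80.4% of the T3 bars and 59.8 to 62.1% of the T5 bars.

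Several of the ligands lie in clusters of chemokine genes. The cluster from Cxcl5 to Cxcl2 spans 147 kb of chromosome 5 (90759360 to 90905938, GRCm38) and holds 7 ligand genes, in the order Cxcl5, Ppbp, Pf4, Cxcl3, Cxcl15, Cxcl1 and Cxcl2. Of these, 6 were called higher in T3 than in T0, beside 15% of all genes tested. Among the 6, Cxcl2, Cxcl3, Pf4 and Ppbp passed the filter only through T3 and T5, and only Cxcl1 and Cxcl5 passed it in T0 too. In T5 against T3, 4 of the 7 were called lower, beside 0.888% of all genes. Cxcl3, a further Cxcr2 ligand, had 0.0649, 0.0858 and 0.126 CPM in T0, 2.53, 7.08, 3.84 and 3.76 CPM in T3, and 0.82 and 0.771 CPM in T5. The groups did not overlap, with log2 fold changes of 5.46 ± 0.41 in T3 against T0 (adjusted p = 1.05e-09) and −2.43 ± 0.36 in T5 against T3 (adjusted p = 0.000239). All 3 T0 values lie under the 0.154 CPM of the filter and at or below 0.036 CPM per kb, less than the mean of silent genes, so Cxcl3 was tested only through T3 and T5. It ran in the same order of groups as Cxcl1, Cxcl2 and Cxcl5.

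The platelet chemokine genes Pf4 and Ppbp stood at or under 0.937 CPM in every library. In T0 replicates 1 and 2 both were under the filter's 0.154 CPM (0 to 0.0858 CPM), so they passed it through T3 and T5. Both were highest in T3 replicate 2, with 0.876 and 0.937 CPM. Without that replicate Ppbp was not called (adjusted p = 0.485). The call was also lost without T0 replicate 1, T0 replicate 2 or T3 replicate 1 (0.0522 to 0.135), with upper quartile factors (0.0981), with DESeq2 (0.135) and with the 4 T5 libraries kept separate (0.052). Cxcl15 was called in neither T3 against T0 nor T5 against T3. In the cluster of Cxcr3 ligands on the same chromosome (92321347 to 92365485), Cxcl10 was called and its neighbours Cxcl9 and Cxcl11 were not. Cxcl11 is annotated as a polymorphic pseudogene and, like Cxcl10, lies inside Art3, so its counts are uncertain. Cxcl9 had 0.477 ± 0.278 CPM in T0, 0.77 ± 0.514 in T3 and 1.07 ± 0.00623 in T5. The cluster from Ccl2 to Ccl1 on chromosome 11 spans 270 kb (82035571 to 82305690). Ccl2 and Ccl7, which are neighbours there, were called higher in T3, while Ccl11, Ccl8 and Ccl1 were not called and Ccl12 did not pass the filter.

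**Figure D5:**
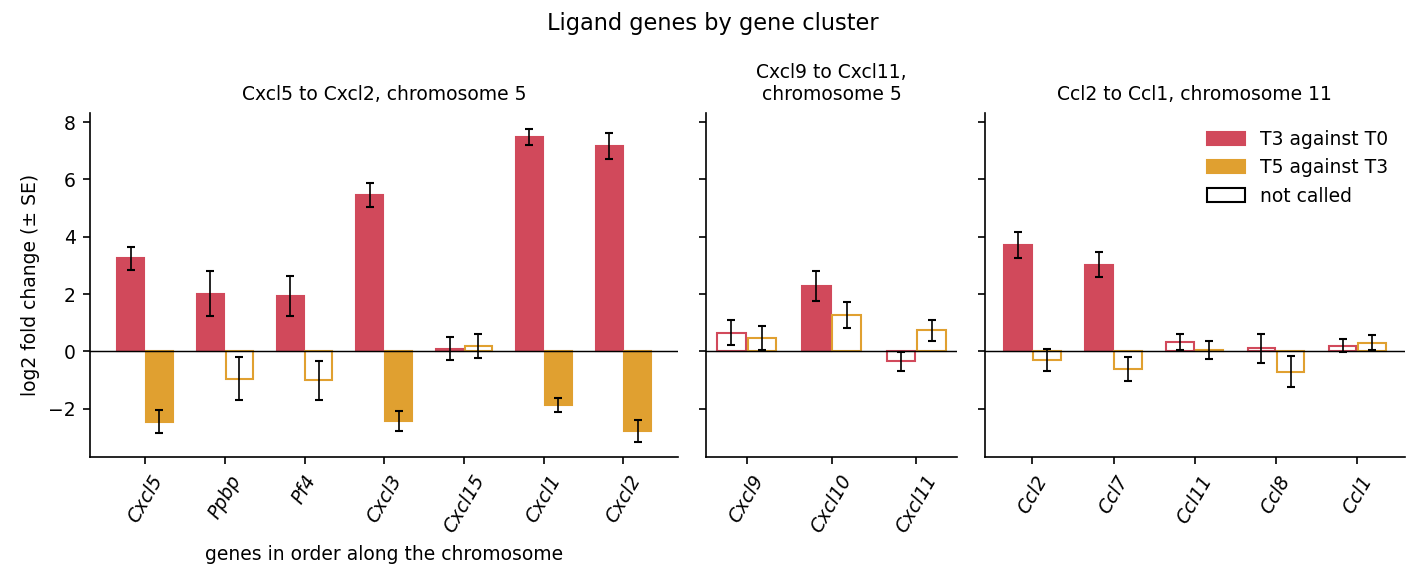
Log2 fold changes (bars, with ± SE) of the tested ligand genes of 3 gene clusters, in their order along the chromosome, in T3 against T0 (red) and T5 against T3 (yellow); white bars were not called. In the left cluster Cxcl5, Cxcl3, Cxcl1 and Cxcl2 were called in both comparisons, and in the right cluster Ccl2 and Ccl7 in T3 against T0 alone.

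Of 28 further chemokine ligands tested, 6 were higher and 4 lower in T3 than in T0, with a median log2 fold change of 0.43. These are 21.4% and 14.3% of the 28, beside 15% and 22.9% of all genes tested. The 6 were Ccl3, Ccl4, Ccl17, Cxcl3, Pf4 and Ppbp. All of these but Ccl17 passed the filter only through T3 and T5, so the 21.4% rests mostly on such genes. Ccl3 had 0.0866, 0.0858 and 0.265 CPM in T0, and its T0 and T3 ranges overlapped. Ccl4, a chemokine gene of macrophages, went from 0.0815 ± 0.0423 CPM in T0 to 0.556 ± 0.289 in T3 (log2 2.82 ± 0.56, adjusted p = 0.000253). All its T0 values were under the filter's 0.154 CPM too, so it was tested only through the groups where it was higher. The 4 that fell were Ccl19, Ccl27a, Ccl28 and Cxcl17. Ccl27a, for example, went from 5.49 ± 1.28 to 1.53 ± 0.0898 CPM, but it overlaps Il11ra1 and is uncertain, as are Ccl19 and Cxcl17, which also overlap other genes. In T5 against T3, 0 were higher and 1, Cxcl3, was lower, beside 1.28% and 0.888% of all genes.

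Of 19 chemokine receptors, 1 was called higher and 2 lower in T3 against T0, and 0 and 1 in T5 against T3. In T3 against T0 these are 5.26% and 10.5% of the 19, both below the shares of all genes. In T5 against T3 they are 0% and 5.26%, beside 1.28% and 0.888% of all genes. The called changes of Cx3cr1, Cxcr6 and Ccr10 are uncertain, because these genes overlap others (Csrnp1, Fyco1 and Cntnap1 among them). Cxcr4, the receptor of Cxcl12, overlaps no gene and was the one receptor called between T3 and T5. It had 51, 45.8 and 32.9 CPM in T0, 40.7, 66.4, 67.1 and 45.4 CPM in T3, and 23.3 and 26.1 CPM in T5. Both T5 replicates were below all others (T5 against T3 log2 −1.15 ± 0.27, adjusted p = 0.019). That call was lost without T3 replicate 2 (adjusted p = 0.0616), T3 replicate 3 (0.0549), T5 replicate A (0.396) or T5 replicate B (0.237).

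Ackr3, an atypical receptor that scavenges Cxcl12, had 89.1, 73.3 and 41.3 CPM in T0, 137, 127, 106 and 131 CPM in T3, and 56.9 and 49.2 CPM in T5. T3 was above both other groups in every replicate. Ackr3 was higher in T3 than in T0 by 0.88 ± 0.23 (log2, adjusted p = 0.00382). In T5 it was lower than in T3 by 1.24 ± 0.28 on the log2 scale (adjusted p = 0.0141). The latter call was lost without T5 replicate A (log2 −1.35) or T5 replicate B (log2 −1.14). The receptors of the inflammatory ligands were low. Cxcr2 had 0.421 ± 0.114, 0.548 ± 0.17 and 0.471 ± 0.031 CPM in T0, T3 and T5, and Ccr2 had 1.06 ± 0.461, 0.769 ± 0.336 and 1.1 ± 0.016 CPM. Neither was called in any comparison, and nor was Cxcr3, which stood at or under 0.315 CPM.

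Transcription factors of the NF-kB family act on many inflammatory chemokine genes. Of 15 genes of NF-kB subunits, inhibitors and their kinases, 13 were higher and 0 lower in T3 than in T0. These are 86.7% and 0% of the 15, beside 15% and 22.9% of all genes tested. Nfkbia, the inhibitor that NF-kB itself induces, rose from 14.1 ± 5.82 to 62.1 ± 12.4 CPM (log2 2.14 ± 0.27, adjusted p = 9.52e-07). Nfkbiz rose from 17.3 ± 3.52 to 82.8 ± 13.9 CPM (log2 2.26 ± 0.22). In T5 against T3, 1 of the 15 was called (lower, beside 0.888% of all genes), Tnfaip3, the feedback inhibitor A20. It stood at 23.5 ± 4.87, 84.3 ± 26.1 and 27.4 ± 3.49 CPM in T0, T3 and T5. In T5 it was lower than in T3 by 1.62 ± 0.29 on the log2 scale (adjusted p = 0.00194). That call was lost without T5 replicate B (log2 −1.5). Nfkbia and Nfkbiz had 45.9 ± 0.084 and 60.3 ± 4.23 CPM in T5.

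Of 15 interferon regulatory and interferon-induced genes, 8 were higher and 3 lower in T3 than in T0. These are 53.3% and 20% of the 15, beside 15% and 22.9% of all genes tested. The share called lower was thus near that of all genes. In T5 against T3, 0 were higher and 3 lower, beside 1.28% and 0.888% of all genes. The 3 were Irf9, Ifit1 and Gbp2. The call of Irf9 was lost without T3 replicate 2 or 3, without either T5 replicate, with upper quartile scaling (adjusted p = 0.0603) and with the replicate block (0.0563). That of Ifit1 was lost with upper quartile scaling (0.0673). Cxcl10, by contrast, had its highest mean in T5, but its T5 against T3 difference was not called. Rsad2, an antiviral gene, had 4.14, 8.08, 23.9 and 4.95 CPM in T3 replicates 1 to 4, and Ifit1 had 6.03, 6.79, 18.4 and 6.14 CPM. T3 replicate 3 was the highest for both, as it was for Cxcl10. In T5 Rsad2 was at 3.61 ± 0.0767 CPM and Ifit1 at 1.62 ± 0.272 CPM. Gbp2, a guanylate-binding protein gene, went from 12.7 ± 0.823 CPM in T0 to 42.6 ± 9.21 in T3 and 8.85 ± 0.641 in T5.

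Of 12 other inflammatory genes, 8 were higher than in T0 in T3 and also 8 in T5, and 0 were lower in either. The list holds cytokine genes and Cd14, which encodes a receptor. Cd14 was called higher in both comparisons and also counts among the monocyte and macrophage markers. The 8 are 66.7% of the 12, beside 15% (T3) and 13.2% (T5) of all genes called higher. Of all genes, 22.9% (T3) and 22.5% (T5) were called lower. Between T3 and T5 edgeR called 0 of the 12 in either direction, beside 1.28% higher and 0.888% lower of all genes. Tnf had 0.233 ± 0.0593, 0.949 ± 0.408 and 1.74 ± 0.0221 CPM in T0, T3 and T5. Csf1, the growth factor of macrophages, had 10.7 ± 0.364, 51 ± 14.5 and 56.2 ± 1.63 CPM. Il6 had 0.367 ± 0.131, 5.03 ± 1.75 and 2.27 ± 0.068 CPM (T5 against T3 log2 −1.15 ± 0.31, adjusted p = 0.0558).

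A further 15 genes act on chemokines after transcription, by cleaving or shedding them, binding them at the cell surface, or controlling the decay of their RNA. Of these, 7 were higher and 4 lower in T3 than in T0. The shares were 46.7% and 26.7%, beside 15% and 22.9% of all genes tested, so the share called lower was near that of all genes. Zfp36, which encodes the RNA-decay factor tristetraprolin, rose from 7.99 ± 3.09 to 113 ± 23.4 CPM (log2 3.83 ± 0.28, adjusted p = 7.93e-10) and had 72.9 ± 1.73 CPM in T5. It overlaps Gm44710 and is uncertain to that extent. Zc3h12a, the gene of an RNase that degrades inflammatory transcripts, rose from 4.98 ± 0.787 to 14.3 ± 2.07 CPM (log2 1.52 ± 0.21). Sdc4, a proteoglycan gene, rose from 150 ± 58.5 to 939 ± 161 CPM. Adam10, which sheds Cx3cl1, had 95.2 ± 15.4, 64.4 ± 5.36 and 56 ± 0.905 CPM in T0, T3 and T5 (T5 against T0 log2 −0.77 ± 0.24, adjusted p = 0.0134, and 0.155 without either T5 replicate). Adam17 had 43.1 ± 9.8, 62.5 ± 5.17 and 37.1 ± 2.14 CPM and was called higher in T3 than in T0 (log2 0.54 ± 0.20, adjusted p = 0.0397), but it overlaps Iah1 and is uncertain. That call was lost without any 1 of the T3 or T5 replicates or T0 replicate 2 (adjusted p = 0.0612 to 0.115), with RLE scaling (0.0798), without the filter (0.055) and with only the 2 groups compared (0.0552).

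Tristetraprolin binds AU-rich elements near the end of a transcript, so copies of the pentamer ATTTA were counted in the last 500 bases of the longest coding transcript of each ligand. Cxcl1 and Cxcl2 had 5 each, Cxcl5 had 3, and Cxcl10, Ccl2 and Ccl7 had 2 each. Cxcl12, Cxcl14 and Cx3cl1 had 0. The nonamer TTATTTATT occurred 2 times in Cxcl1 and 1 time in Cxcl2, and in none of the other 7. Of 19139 genes, 3.75% had at least 4 pentamers and 2.84% had the nonamer. The ligands with the most pentamers were those called lower in T5 than in T3. This count was added after the expression values were seen, and its bearing on the levels was not tested.

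Patterns were compared by the root mean square difference of mean-centred log2 CPM over the 9 replicates, among 4440 genes that overlap no other gene, with the 9 ligands themselves and genes with a mean log2 CPM under 2 left out. The genes most like Cxcl1 were Fosb, an AP-1 subunit gene, at 0.4 log2 units, Emp1 at 0.66 and Ier5 at 0.77, and the same 3 of the 4440 were nearest to Cxcl2, at 0.81, 0.92 and 0.95. Cxcl5 was nearest to Sema7a (0.58), Lmna (0.61) and Tnfaip3 (0.64). Nearest to Ccl2 were Slc22a4 (0.46), Ncs1 (0.5) and Ehd1 (0.58), and to Ccl7 Cadm4 (0.45), Baiap2 (0.48) and Pak1 (0.49). Col1a1, a collagen gene of fibroblasts, was nearest to Cxcl10, at 0.74, followed by Ankrd33b (0.8) and Gfpt2 (0.81). Col1a1 had 34.9 CPM in T3 replicate 3, against 5.65 to 12.6 in the other T3 replicates, and 36 and 34.3 CPM in T5.

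Cxcl12 was nearest to Sqle (0.12), Samd9l (0.18) and Flna (0.18), Cxcl14 to Mfap3l (0.25), Nfatc2 (0.28) and Plpp3 (0.31), and Cx3cl1 to Slc35f5 (0.14), Cip2a (0.15) and Map3k8 (0.15). Among the ligands themselves the closest pairs were Cxcl12 and Cxcl14 (0.5), Ccl2 and Ccl7 (0.54) and, of those that changed most, Cxcl1 and Cxcl2 (0.62). Cxcl1 was thus nearer to Cxcl2 than Fosb was, and Ccl7 nearer to Ccl2 than Ehd1. Genes that change little are close to each other by this measure whatever their pattern. Each ligand and its nearest genes were measured in the same libraries.

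Markers of other cells that make chemokines were present at low to moderate levels. The myofibre list, given with Cxcl5 above, had the most calls. Of the 10 monocyte and macrophage markers 4 were called higher in T3 than in T0, of the 10 neutrophil markers 1 (Ngp), and of the 10 fibro-adipogenic progenitor and fibroblast markers 2 (Col1a1 and Col1a2) against 2 lower. Of all genes tested, 15% were called higher and 22.9% lower. The fibro-adipogenic shares (20% each way) were near these, and the neutrophil share called higher (10%) was below. None of the markers in these lists was at 0 in any library. The neutrophil gene Ly6g was at 0.175 to 0.378 CPM throughout, and S100a8 at 0.234 to 2.7 CPM, highest in T3 replicate 3. The fibroblast gene Dcn had 29.7 CPM in T3 replicate 3 and 10.3 to 14 CPM in all other replicates. The part of these cells in the ligand levels was not tested.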

How the data were processed

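RNA sequencing measured 11 libraries of muscle stem cells. The authors deposited raw read counts per gene, and per the submitters' processing notes the build was GRCm38 and the tools included featureCounts 1.4.6-p3, STAR 2.5.0a, DESeq2 1.12.3 and R 3.3.1. The annotation release, strand setting and filters are not given in the sources used here. Of the gene IDs, 48349 matched GENCODE vM21 and 360 did not. The column numbers of T0 and T3 could not be matched to the title letters, and replicates are named by column number. T5 libraries were summed by letter. The test was edgeR 4.0.16 (R 4.3.3, glmQLFit and glmQLFTest, two-sided) with TMM factors, filterByExpr and no covariate, and DESeq2 1.42.0 as an alternative; SE is the log2 fold change over the root of F. The script was tested on simulated data. Intervals cover counting error only. All 9 ligands, and in other lists called genes with the 3 highest and 3 lowest changes, could be named; Adam17, Cxcr2, Ccr2, Cxcr3 and Cxcl9 were added after their values were seen. The host-gene estimate, the shared promoter run and the AU-rich count were added likewise. Members and lists were chosen with earlier results of these data known.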

Additional observations from a re-analysis of the deposited data

Results flagged for a closer look

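In T3, 2 of the 9 ligands had a replicate far from the others by Dixon's test for 4 values. Cxcl10 in T3 replicate 3 was at 2.65 CPM, the next replicate at 0.737 CPM (gap over range 0.871). Ccl7 in the same replicate was at 4.5 CPM, the next at 1.49 CPM (0.863). Chance marks about 1 in 20 groups in this way.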

How the results depend on the processing

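Of 432 recomputed log2 fold changes of the ligands, 397 kept their direction and side of the threshold, 9 gained and 17 lost a call, and 9 changed sign, all of the last being uncalled. The signs that changed were of T3 against T0 for Cxcl12 (without 1 replicate, −0.03 to 0.19) and of T5 against T3 for Ccl2 (−0.53 to 0.36; 0.25 with the replicate block) and Ccl7 (−0.84 to 0.07). They were also of T5 against T0 for Cxcl5 (−0.13 to 1.34) and Cxcl14 (−0.01 with RLE scaling and with DESeq2, −0.01 to 0.18 without 1 replicate). In T5 against T3, 1 ligand, Cxcl10, was called higher without the filter (adjusted p = 0.0115) and with the replicate block (log2 2.05, adjusted p = 0.00157), and 0 to 1 without 1 replicate. In T5 against T0, 0 ligands were called lower with upper quartile scaling, without the filter, with only the 2 groups compared and with the replicate block (Cxcl12, adjusted p = 0.102), and 0 to 1 without 1 replicate. T0 and T3 libraries of the same number correlated at −0.168, 0.21 and 0.22 in their deviations, and those of different numbers at −0.315 to 0.307. With so few libraries per group this cannot decide whether the numbers mark a pairing. Per kb of the whole gene span, Cxcl12 held 46.5% of the 9 ligands in T0 and 3.64% in T5, Cxcl14 15.8% in T0, and Cxcl1 12.6% in T0, 82.8% in T3 and 73% in T5.

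Over all genes, calls in T5 against T3 (411 higher, 284 lower) depended on the settings: 268 higher with RLE, 456 lower with upper quartile scaling, 659 lower with DESeq2, and 461 lower with the replicate block. They were 695 and 518 without the filter, 923 and 1199 with 4 T5 libraries, and 1348 and 1645 with only the 2 groups compared. Without 1 replicate they ran from 143 to 922 and from 41 to 1581. In T5 against T0, 4229 genes were higher, 7144 with upper quartile scaling and 2531 to 8280 without 1 replicate; in T3 against T0, 4132 to 7080 higher without 1 replicate. Upper quartile scaling gave 7159 higher and 5798 lower in T3 against T0 (4807 and 7332 by TMM) and moved the median of all genes from 0.05 to 0.32, and from 0.18 to 0.51 in T5 against T0. Of 576 recomputed list counts, 503 stayed within 1.5 times. Of 1056 values of other named genes, 955 kept their call and 101 lost it. The cause was not tested. Depth limits Cxcl2 in T0 to 18 reads; with T5 reduced to 1 replicate, its spread is assumed to be that of the other groups.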
